A study of Mus musculus with 2 samples.

Results

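The solute carrier families Slc4, Slc8, Slc9, Slc12, Slc20, Slc24, Slc26 and Slc34 move inorganic ions (bicarbonate, chloride, sodium, protons, potassium, calcium, phosphate and sulfate) across cell membranes. Members were the genes whose symbol carries one of these family names followed by a or b and a number, found through the RefSeq accession of each gene probe. Of 20659 genes named on the array 54 were members, read by 77 of 39429 gene probes, and of the 55 such genes in the RefSeq table only Slc26a8 had no probe named this way. Measured on both arrays, meaning well above background on each, were 46 members (85.2%), against 88.3% of all named genes. A further 3 members were above background on the array labelled Sirpa-/- only, 2 on the WT array only, and 3 on neither.

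RNA came from kidney glomeruli, the capillary tufts that filter blood. The mice were male and labelled as 8 months old. They received 0.5 ml pristane, an oil that causes lupus-like autoimmunity and nephritis, into the abdomen and were followed for 4 months. One group lacked Sirpa, which encodes the inhibitory receptor SIRPα, in podocytes (Sirpa-/-), and the other was wild type (WT). Both groups carried the pristane treatment, no uninjected mice were analysed here, and the promoter that drives the deletion, the number of animals and any pooling are unknown here. The design text speaks of podocytes, but the labels describe glomeruli collected with magnetic beads. Each group had 1 one-colour Agilent array, so every difference below is one between 2 arrays, with no replicate check and no test.

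In the kidney these transporters divide the work along the nephron. The proximal tubule reclaims sodium, bicarbonate, phosphate and sulfate from the filtrate, the thick ascending limb and the distal convoluted tubule reclaim salt, and intercalated cells of the collecting duct set the acid-base balance. Other members regulate cell volume, pH and calcium in nearly every cell, glomerular cells included. RNA of bead-collected glomeruli can also hold tubule fragments.

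Signals are processed spot intensities scaled so that both arrays share their 75th percentile. Every difference is on the log2 scale, with WT subtracted from Sirpa-/-. Signals of different genes come from different probes and show no order of RNA levels between genes. A summed signal of a list is weighted to its brightest probes, so 1 gene can carry much of it. The targeted gene went against its label: Sirpa gave 17691 on the array labelled Sirpa-/- and 11378 on the WT array (difference 0.64, 1.55-fold higher). Whether the Sirpa probe that was read (A_55_P2118037) lies in the deleted stretch is unknown here, and cells other than podocytes keep the gene. All directions are therefore those of the labelled arrays. All 14 podocyte markers were measured on both arrays, with a summed signal of 517891 on the array labelled Sirpa-/- and 481987 on the WT array and a median difference of 0.09. In bulk RNA, fewer cells of a type and less RNA per cell cannot be told apart.

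Of the 46 measured members 1 passed 2-fold upward, Slc12a3, where 1.56% of all 18239 measured genes did. Lower by at least 2-fold were 3 members of 46, Slc9a3, Slc26a10 and Slc12a8, against a background of 1.67%. The median of the 46 members was -0.03, and of all measured genes 0.00. Their quartiles ran from -0.24 (lower quartile) to 0.13 (upper quartile), near the -0.15 to 0.15 of all genes. Within 1.5-fold lay 36 members, 5 were at least 1.5-fold higher (background 4.34%) and 5 at least 1.5-fold lower (background 5.27%). The same shares of all genes apply to every count in a family, segment or list below. Of all genes past 2-fold, 48.4% were higher, or 58.9% with normexp.

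**Figure D1:**
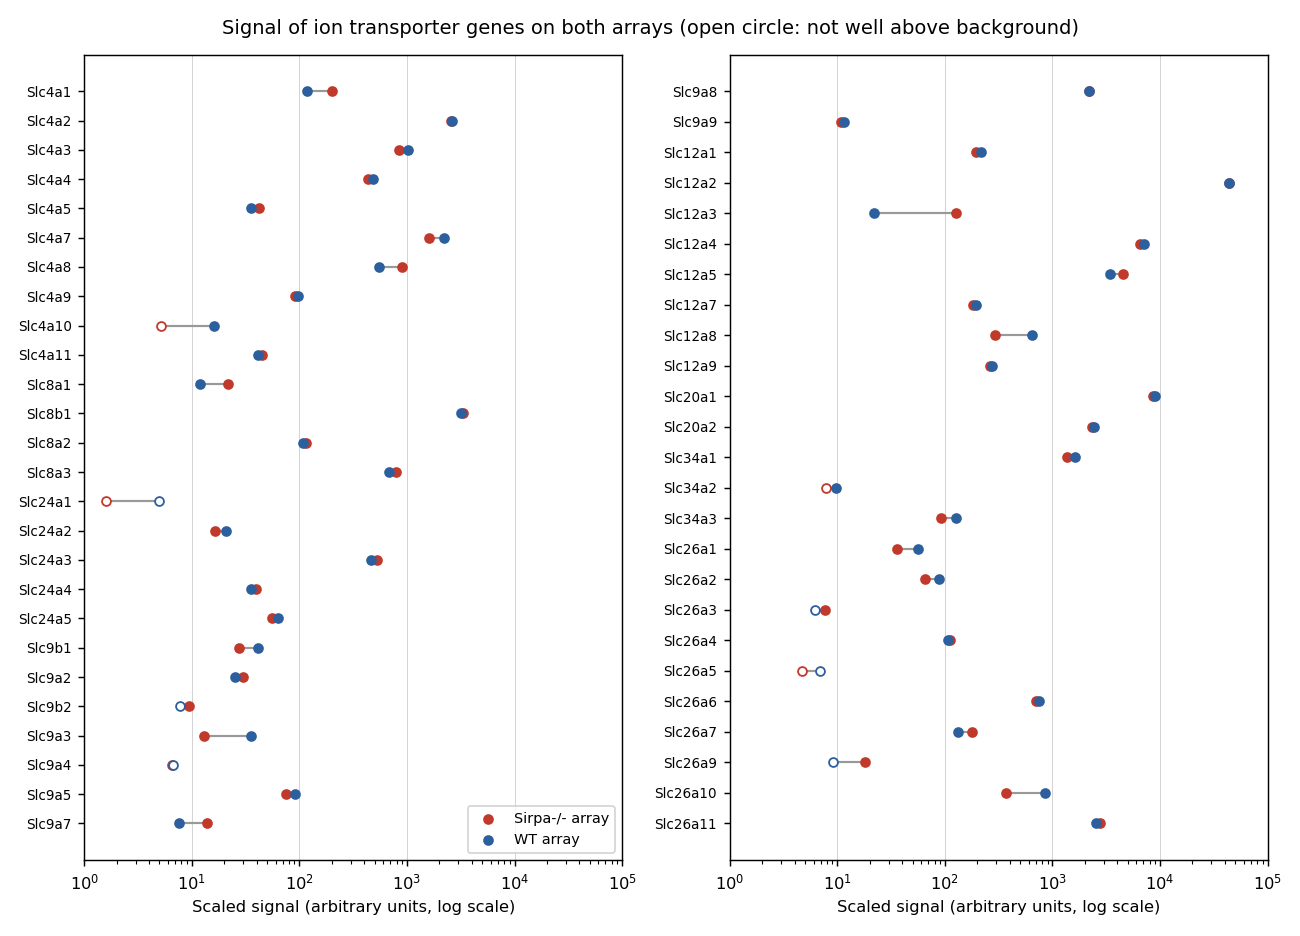
Scaled signal of 51 ion transporter genes (x axis, arbitrary units, log scale) on the array labelled Sirpa-/- (red) and the WT array (blue), joined by a line, from the brightest probe measured on both arrays where there is one. Open circles were not well above background. Slc12a3 has the longest line among genes measured on both arrays, with 128 on the array labelled Sirpa-/- and 22.1 on the WT array, and most pairs of points nearly coincide.

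The sequences before the start sites of Slc12a3, Slc9a3 and Slc26a10 are shown because these are members past 2-fold with a single start site in the RefSeq promoter table. Slc12a8 has 3 start sites there and is not shown. Each run holds the 250 bases before the start, in transcript direction, from RefSeq on GRCm38.p6, at chr8:94328958-94329207 (plus strand) for Slc12a3, chr13:74121163-74121412 (plus strand) for Slc9a3 and chr10:127180583-127180832 (minus strand) for Slc26a10. Capitals mark matches on either strand to GGGCGG (the GC box bound by Sp1) or TATAAA (the TATA box).
Slc12a3: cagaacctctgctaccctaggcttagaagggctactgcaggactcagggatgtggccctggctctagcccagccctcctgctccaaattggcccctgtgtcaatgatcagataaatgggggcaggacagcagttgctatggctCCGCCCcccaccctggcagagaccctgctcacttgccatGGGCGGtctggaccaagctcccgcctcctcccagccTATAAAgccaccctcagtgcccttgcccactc
Slc9a3: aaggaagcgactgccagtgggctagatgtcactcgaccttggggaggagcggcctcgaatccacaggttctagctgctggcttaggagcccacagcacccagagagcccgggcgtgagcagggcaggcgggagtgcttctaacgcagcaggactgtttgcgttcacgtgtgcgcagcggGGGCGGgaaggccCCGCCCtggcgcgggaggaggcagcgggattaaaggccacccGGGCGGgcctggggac
Slc26a10: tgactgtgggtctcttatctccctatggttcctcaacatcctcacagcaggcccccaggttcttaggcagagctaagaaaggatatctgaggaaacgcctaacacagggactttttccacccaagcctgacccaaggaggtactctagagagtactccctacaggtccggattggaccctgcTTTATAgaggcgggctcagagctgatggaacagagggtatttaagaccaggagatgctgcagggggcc
Slc12a3 held TATAAA 32 bases before its start and GC boxes 68 and 107 bases before it. Slc9a3 had no TATAAA and GC boxes at 16, 58 and 71 bases, in a run with 67.6% G and C, against a median of 52.4% over 32851 promoters of the same length. Slc26a10 had the reverse complement TTTATA at 68 bases and no GC box. GGGCGG occurred in 32.7% of all such promoters and TATAAA in 12.4%. The letters GTTAAT (recognised by HNF1 factors), CAAAGT (HNF4) and AGAACA (steroid hormone receptors), in 6.43%, 12.6% and 16.1% of promoters, were in none of these 3 windows. The matches describe the letters only, and promoters were matched for 40 of the 54 members.

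Among the cation-chloride cotransporters, Slc12a3 stood out. It encodes NCC, the thiazide-sensitive sodium-chloride cotransporter of the distal convoluted tubule. Its only probe gave 128 on the array labelled Sirpa-/- and 22.1 on the WT array, 5.77-fold higher (difference 2.53). Before background subtraction the spot read 144 over a local background of 15 on the array labelled Sirpa-/-, and 54 over 17 on the WT array. The WT signal is dim, though well above background. With background correction by normexp and an added offset of 50, which pulls the ratios of dim spots together, the difference was 1.22, and a filter that asks for a signal of 100 on both arrays drops the gene.

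Slc12a1 encodes NKCC2, the loop-diuretic target of the thick ascending limb and macula densa. It gave 196 on the array labelled Sirpa-/- and 217 on the WT array (-0.15). Slc12a2, the widely expressed cotransporter NKCC1, differed least of the family, with 43701 on the array labelled Sirpa-/- and 43920 on the WT array (-0.01). The potassium-chloride cotransporters, which let cells shed salt and shrink, stayed within 1.5-fold, among them Slc12a4 (KCC1) at -0.12 and Slc12a7 (KCC4) at -0.10. Slc12a5 (KCC2, best known from neurons) gave 4525 on the array labelled Sirpa-/- and 3396 on the WT array (0.41), but its dimmer probe gave -0.08. Slc12a9 lay at -0.04.

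Slc12a8, a family member whose substrate is debated, was 2.20-fold lower. Its brighter probe gave 291 on the array labelled Sirpa-/- and 639 on the WT array (-1.13), and its dimmer probe 119 on the array labelled Sirpa-/- and 190 on the WT array (-0.67). Both probes thus showed a lower signal on the array labelled Sirpa-/-, and only the brighter passed 2-fold. The mean of both probes was -0.90, and normexp gave -0.85, so these settings end the 2-fold call.

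The anion exchangers of family Slc26 had the other lower member of similar size. Slc26a10, whose transport function is little known, gave 369 on the array labelled Sirpa-/- and 858 on the WT array, 2.32-fold lower (-1.22). It has 1 probe, and it stayed at least 2-fold lower in all 7 alternatives, between -1.22 and -1.11. For a gene with 1 probe of this signal, the filters on dim probes and the mean of probes cannot change the value. The remaining alternatives rework the same spots. Slc26a1, the basolateral sulfate exchanger of the proximal tubule, was 1.59-fold lower, with 35.8 on the array labelled Sirpa-/- and 56.7 on the WT array (-0.67), but only -0.08 with normexp. Slc26a2, the sulfate transporter needed for cartilage matrix, lay at -0.43, from 65.3 on the array labelled Sirpa-/- and 88.1 on the WT array. Slc26a6, an apical exchanger of the proximal tubule, lay at -0.10 on its brightest probe and at 0.08 and 0.07 on its other probes.

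Slc26a11 offered the best view of technical error, since its probe is spotted 10 times. Over the 9 spots left unmarked on both arrays, its signal ran from 2678 to 2993 (median 2705) on the array labelled Sirpa-/- and from 2430 to 2658 (median 2538) on the WT array. The spots did not overlap between arrays, yet the difference was only 0.12 ± 0.03 (SD over 9 spots of 1 array pair). All genes with signals of 1000 or more had a median absolute difference of 0.11. Overlap was not counted for the other probes spotted 10 times. Repeat spots share one RNA, so their SD shows how finely a bright spot reads an array and nothing of the spread between mice. Over 360 such probes the median SD of the difference between spots at the same place was 0.05 at signals of 1000 or more, 0.07 from 100 to 1000, 0.23 from 30 to 100 and 0.36 under 30. Single probes spread far more: the highest SD was 0.09 at 1000 or more, 0.94 from 100 to 1000, 0.78 from 30 to 100 and 1.504 under 30. The probes of Slc12a3, Slc26a10, Slc12a8 and Slc9a3 are not spotted 10 times, so their own spot error is not known here.

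**Figure D2:**
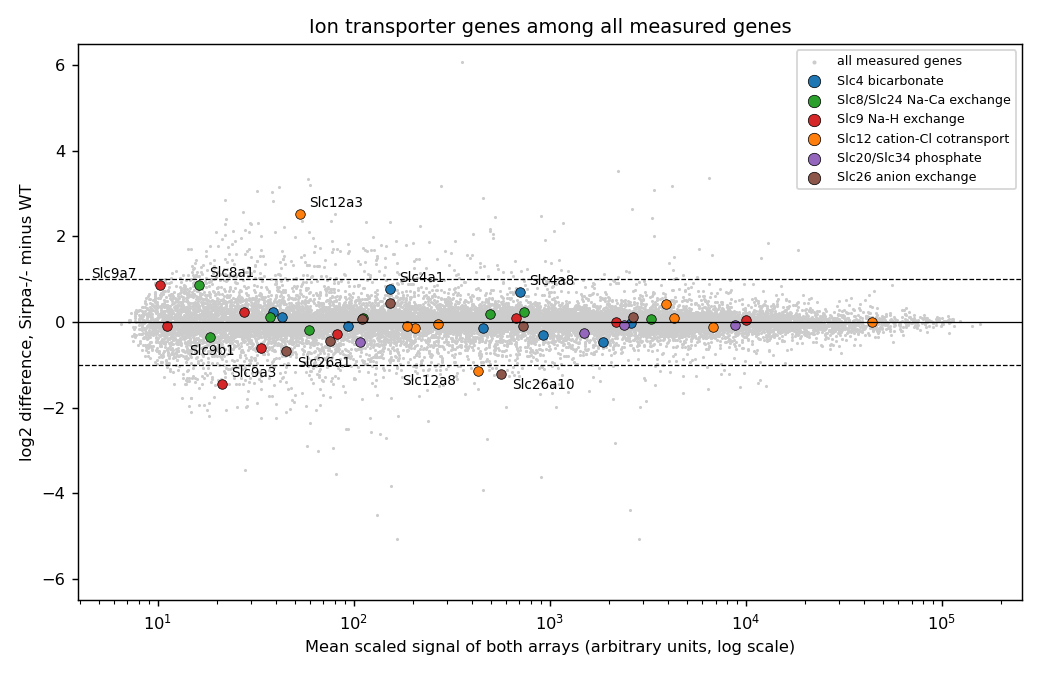
log2 difference, Sirpa-/- minus WT (y axis) against the mean scaled signal of both arrays (x axis, log scale), for all measured genes (grey) and the 46 measured ion transporters (coloured by family), with dashed lines at 2-fold. The grey cloud widens at low signals, where Slc12a3 and Slc9a3 lie, and the 13 transporters at 1000 or more lie between -0.47 and 0.41.

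Signal therefore bears on how unusual a 2-fold difference is. At mean signals under 30, 0 of 6 members were 2-fold higher and 1, Slc9a3, 2-fold lower, where 3.41% of all genes were higher and 3.57% lower. From 30 to 100, 1 of 10 members was higher, Slc12a3, and 0 lower, against 2.77% and 2.7% of all genes. From 100 to 1000, 0 of 17 members were higher and 2 lower, Slc26a10 and Slc12a8, against 1.56% and 1.71%. At 1000 or more 0 of 13 members passed 2-fold either way, against 0.411% of all genes higher and 0.535% lower.

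The sodium-proton exchangers of family Slc9 had 1 member far below 0. Slc9a3 encodes NHE3, the apical exchanger that takes up most filtered sodium and bicarbonate in the proximal tubule. It was 2.72-fold lower, with 13.0 on the array labelled Sirpa-/- and 35.3 on the WT array (-1.44). Both signals are dim: the raw spot read 40.5 over a local background of 17 on the array labelled Sirpa-/- and 70 over 15 on the WT array. With normexp the difference was -0.26, which ends the 2-fold call. Slc9a8, an exchanger of the Golgi, gave 2181 on the array labelled Sirpa-/- and 2165 on the WT array (0.01).

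Slc9a7, of the trans-Golgi network, was 1.83-fold higher, but from signals of 13.9 on the array labelled Sirpa-/- and 7.58 on the WT array (0.87, and 0.35 with normexp). Slc9b1, known from testis, was 1.51-fold lower on one probe (-0.60) and at 0.00 on the other, so its probes differ. Slc9a2 (0.24), Slc9a5 (-0.29) and Slc9a9 (-0.10) stayed within 1.5-fold. The family median was 0.01 over 9 genes, 1 of which was at least 2-fold lower.

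The bicarbonate transporters of family Slc4 had 0 of 9 measured members at 2-fold with their median at -0.02. Past 1.5-fold upward were 2 of them. Slc4a1 encodes AE1, the chloride-bicarbonate exchanger of red cells and of the basolateral side of acid-secreting intercalated cells. It was 1.71-fold higher, with 200 on the array labelled Sirpa-/- and 117 on the WT array (0.77). Erythroid markers moved with it in part: of 10 measured, 4 passed 2-fold upward and 1 downward, against 1.56% and 1.67% of all genes. Their median was 0.71, with the globin gene Hbb-bt at 1.69 and the haem synthesis gene Alas2 at 1.61. Their summed signal was 131525 on the array labelled Sirpa-/- and 61231 on the WT array, the membrane protein genes Epb42 and Rhag were not well above background on both arrays, and their part in the Slc4a1 value was not tested.

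Slc4a8 encodes a sodium-driven chloride-bicarbonate exchanger found in mouse intercalated cells and in neurons. Its only probe gave 904 on the array labelled Sirpa-/- and 554 on the WT array, 1.63-fold higher (0.71). The value lay between 0.67 and 0.71 in all 7 alternatives, but the filters and the mean of probes cannot change it. Slc4a7, an electroneutral sodium-bicarbonate cotransporter, went the other way, with 1596 on the array labelled Sirpa-/- and 2206 on the WT array (-0.47), but its dimmer probe gave 0.01. The anion exchangers Slc4a2 (AE2) and Slc4a3 (AE3) lay at -0.02 and -0.30, and Slc4a3 gave 0.00 on its dimmer probe. Slc4a4 (NBCe1), the basolateral bicarbonate exit of the proximal tubule, gave 436 on the array labelled Sirpa-/- and 481 on the WT array (-0.14), with -0.09 and 0.04 on its other probes. Slc4a5 (0.24), Slc4a11 (0.12) and Slc4a9 (-0.10) stayed within 1.5-fold.

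The sodium-phosphate cotransporters all lay below 0 on their main probes, at a median of -0.17 over 4 genes, and 0 of 4 reached 1.5-fold. Slc34a1 (NaPi-2a), the main phosphate carrier of the proximal brush border, gave 1359 on the array labelled Sirpa-/- and 1624 on the WT array (-0.26), but 0.00 on its dimmer probe. Slc34a3 (NaPi-2c), of the same membrane, gave 91.3 on the array labelled Sirpa-/- and 126 on the WT array (-0.46), and -0.17 with normexp. The carriers of general use, Slc20a1 (PiT1, -0.08) and Slc20a2 (PiT2, -0.06), lay nearer to 0, and Slc20a1 lay at 0.17 with the mean of its probes.

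The sodium-calcium exchangers had a median of 0.11 over 8 genes, with 6 above 0, where 50.2% of all genes lay above 0. Slc8a1 (NCX1), which carries calcium out of distal convoluted tubule cells and of heart muscle, was 1.83-fold higher, from dim signals of 21.9 on the array labelled Sirpa-/- and 11.95 on the WT array (0.87). It lay at 0.35 with normexp, and its other probe was not above background on either array. Slc8b1, the mitochondrial exchanger, gave 3347 on the array labelled Sirpa-/- and 3186 on the WT array (0.07), and 0.10 on its other probe, the closest pair of probes among the members. Slc8a2 (0.10) and Slc8a3 (0.23) and the potassium-dependent exchangers Slc24a3 (0.19), Slc24a4 (0.13) and Slc24a5 (-0.18) stayed within 1.5-fold. The probes of Slc24a2 gave -0.35 and 0.36 at signals of 20.8 or less.

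**Figure D3:**
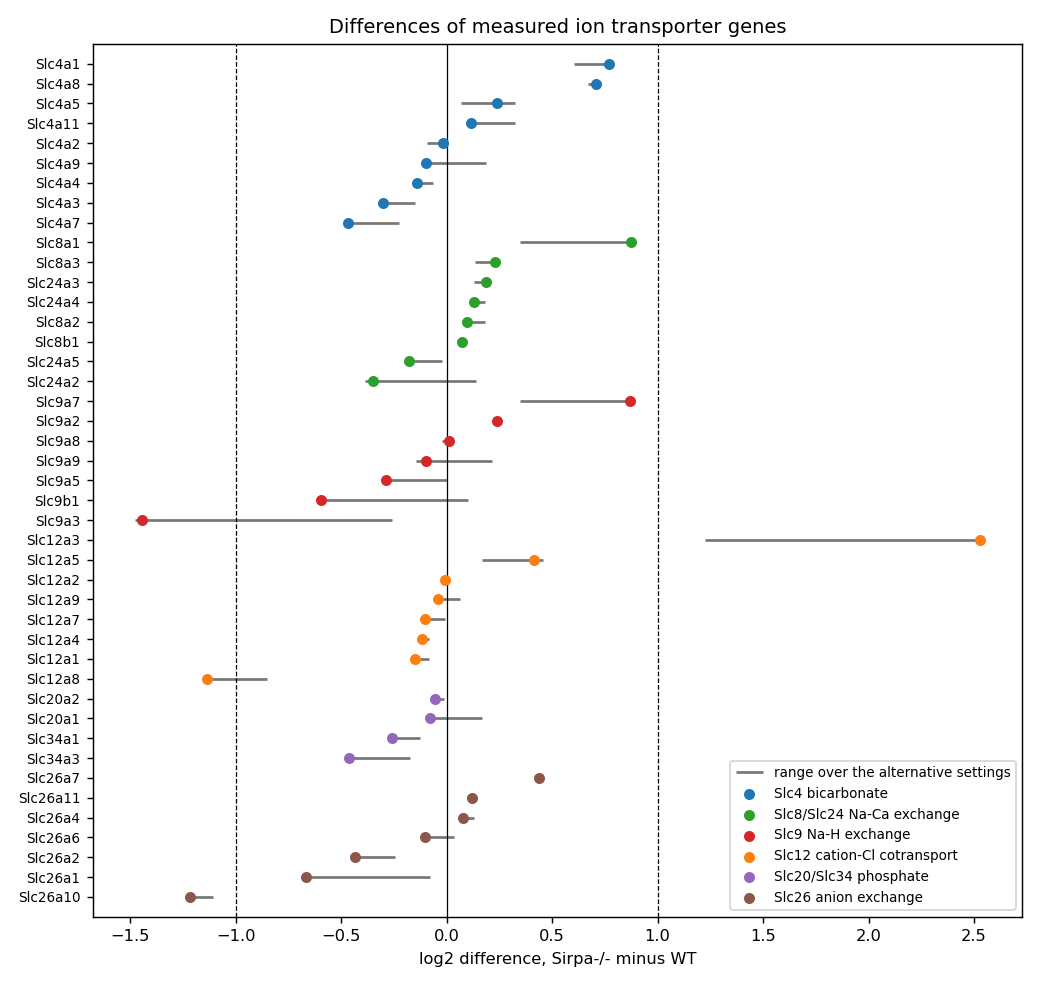
log2 difference of 43 measured ion transporters (points, coloured by family), with grey lines for the range over the alternative settings and dashed lines at 2-fold. Slc12a3 stays above 1 and Slc26a10 below -1 over the settings that measure them, while the ranges of Slc9a3 and Slc12a8 cross -1.

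Members not measured on both arrays have nominal bounds or none. The detection limit is the lowest signal called well above background on an array. Some signals above it were not called, so no bound is guaranteed. Slc4a10, a sodium-bicarbonate transporter best known from the choroid plexus and neurons, was above background on the WT array only (16.0). It read 5.201 on the array labelled Sirpa-/-, and its bound against the detection limit was 2.53-fold lower. Slc26a9, an epithelial chloride channel and exchanger, was above background on the array labelled Sirpa-/- only (18.2), against 9.01 on the WT array. Its bound of 2.02-fold higher is the plain ratio of these signals. Bounds of at least 2-fold occurred in 22.9% of all genes seen only on the array labelled Sirpa-/- and in 23.4% of those seen only on the WT array. Smaller bounds were those of Slc26a3 (1.17-fold higher, against the detection limit), Slc9b2 (1.21-fold higher) and Slc34a2 (1.23-fold lower). Those of Slc9b2 and Slc34a2 are plain ratios of the signals. Slc24a1, of rod photoreceptors, Slc26a5 (prestin, of cochlear hair cells) and Slc9a4, of the stomach, were not well above background on either array.

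Several probes measured 16 members, and the gap between the highest and the lowest probe of a gene had a median of 0.32, against 0.20 over all 4561 genes with several measured probes. It exceeded 1.5-fold in 2 of them (12.5%), Slc24a2 and Slc9b1, against 13.0% of those genes. All probes had the same sign in 4 of the 16, among them Slc12a8, Slc8a3 and Slc8b1. Of these 4, only Slc12a8 was past 1.5-fold. Same signs were not counted over all genes, so the 4 of 16 has no background share beside it.

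Members were grouped by nephron segment from their textbook place, with earlier results of these data known. The 6 proximal tubule members (Slc34a1, Slc34a3, Slc9a3, Slc4a4, Slc26a1 and Slc26a6) all lay below 0 on their brightest probes. Their median was -0.36, and 49.8% of all genes lay below 0. Dimmer probes gave 0.00 for Slc34a1, -0.09 and 0.04 for Slc4a4, and 0.08 and 0.07 for Slc26a6. Of the 6 members, 1 was at least 2-fold lower. With normexp the median was -0.13 with 5 of 6 below 0, and with the stricter filter -0.14 over the 3 genes left. Slc26a6 moved to 0.036 with normexp and to 0.016 with the mean of probes, so its sign is not settled. Proximal tubule markers lay lower too, with 16 of 20 below 0 and a median of -0.25. Their summed signal was 32868 on the array labelled Sirpa-/- and 41536 on the WT array. The water channel Aqp1 (-0.93), the lactate carrier Slc5a12 (-0.80), Slc7a13 (-0.67) and Slc17a3 (-0.58) had the largest differences, 0 of 20 reached 2-fold, and their part in the members' values was not tested.

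Distal convoluted tubule markers lay higher beside Slc12a3. Of 9 measured, 4 were at least 2-fold higher, against 1.56% of all genes. These were the kallikrein Klk1 (1.45), calbindin (Calb1, 1.39), the potassium channel Kcnj10 (1.38) and the magnesium channel Trpm6 (1.04). Fgf13 was 3.34-fold lower (-1.74), and Trpv5 was not well above background on both arrays. The median was 0.83, and the summed signal 3712 on the array labelled Sirpa-/- and 2117 on the WT array. Klk1 alone gave 1835 on the array labelled Sirpa-/- and 673 on the WT array. Loop markers lay at a median of 0.56 over 10 genes. Of these, 2 passed 2-fold upward (1.56% of all genes did), among them the potassium channel Kcnj1 (1.38). Umod gave 0.97, and Slc12a1 of the same segment -0.15. The summed signal of the loop markers was 19691 on the array labelled Sirpa-/- and 16904 on the WT array. The share of these segments' cells in the Slc12a3 value was not tested.

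Intercalated cell transporters had a median of 0.44 over 5 genes: beside Slc4a1 and Slc4a8, Slc26a7, a basolateral anion transporter, gave 179 on the array labelled Sirpa-/- and 132 on the WT array (0.44). The apical exchanger pendrin (Slc26a4), of bicarbonate-secreting cells, gave 112 on the array labelled Sirpa-/- and 107 on the WT array (0.08), and Slc4a9 of the same cells -0.10, or 0.12 with normexp. The markers of this cell type had a median of 0.13 over 10 genes, with 0 at 2-fold and 4 below 0. The stricter filter gave 0.44, but it kept few of them, on both sides of 0. The ammonia channel Rhcg (0.96) and the transcription factor Foxi1 (0.91) were the highest. Their summed signal was 1009 on the array labelled Sirpa-/- and 817 on the WT array, and Hmx2 was not well above background on both arrays. Principal cell markers of the collecting duct lay at 0.05 over 9 genes, but at -0.12 with the stricter filter, so their sign is not settled. That filter left few of them, among them a gene that is also on the mesangial list. B cell markers lay at 0.77, and 4 of 10 passed 2-fold upward, against 1.56% of all genes. Glomerular endothelial markers lay at -0.07 and mesangial markers at -0.05, or 0.02 with normexp.

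**Figure D4:**
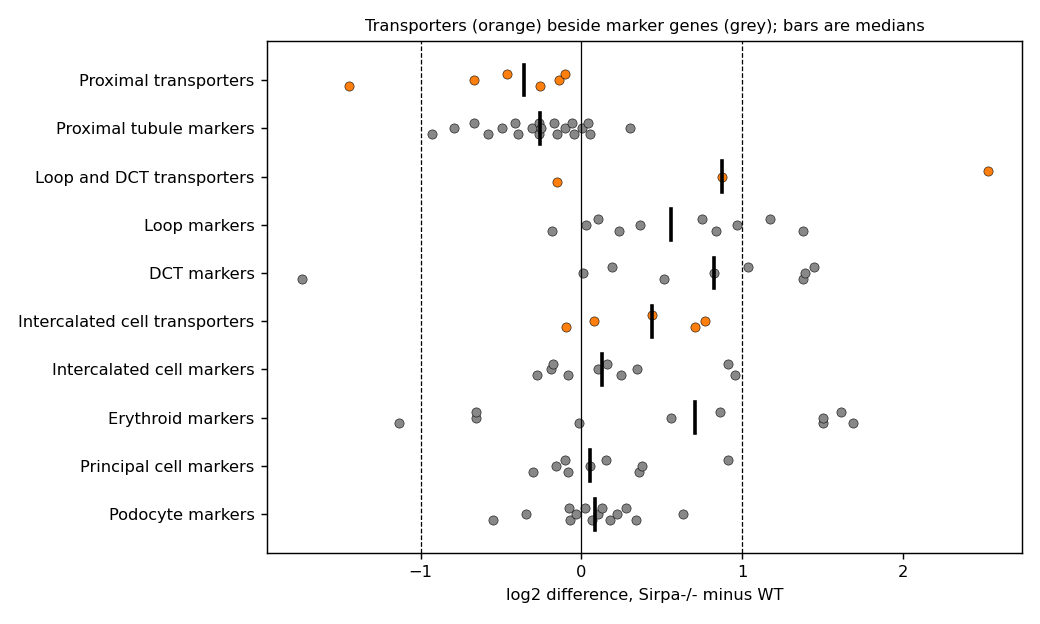
log2 difference of each gene (points), for ion transporters of a nephron segment (orange) and marker genes (grey), with black bars at the group medians and dashed lines at 2-fold. All 6 proximal transporters lie below 0 on their brightest probes, and distal convoluted tubule (DCT) markers lie mostly above 0 with Fgf13 far below.

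Among genes that work with these transporters, 0 of the 60 measured in 6 lists reached 2-fold, and single genes came close to it. Of all genes 1.56% were at least 2-fold higher and 1.67% lower. In lists of this size 0 is near these shares. The kinases of the WNK and SPAK cascade switch Slc12 cotransporters on and off by phosphorylation, which RNA does not show. Of 11 measured genes of that cascade 0 reached 2-fold and the median was 0.07. Stk39, which encodes SPAK, the kinase that activates NCC, came closest, with 2683 on the array labelled Sirpa-/- and 5343 on the WT array, 1.99-fold lower (-0.99). Its relative Oxsr1 lay at 0.21, and Wnk1 and Wnk4 at -0.04 and 0.14. Slc12a3 and Stk39 thus lay on opposite sides of 0.

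The sodium pump, whose gradient powers most members, had 0 of 13 genes at 2-fold and a median of -0.01, or 0.08 with normexp. Its subunit Atp1b1 gave 2070 on the array labelled Sirpa-/- and 1053 on the WT array (0.97), and the tubule subunit Fxyd2 gave 0.61, with 0.73 on its other probe. Most but not all other regulatory subunits lay below 0. Farthest from 0 were Fxyd5 with 2134 on the array labelled Sirpa-/- and 3109 on the WT array (-0.54), and Fxyd1 with 2479 on the array labelled Sirpa-/- and 3419 on the WT array (-0.46). Among 13 carbonic anhydrases, which supply bicarbonate and protons, 0 reached 2-fold and the median was 0.20, or 0.11 with the stricter filter, with Car3 (0.74), Car11 (-0.68), Car12 (-0.65) and Car8 (0.57) farthest from 0. Scaffold and phosphate hormone genes had a median of 0.11 over 9 genes and 0 at 2-fold, led by the FGF23 coreceptor klotho (Kl), with 324 on the array labelled Sirpa-/- and 194 on the WT array (0.74). Calcium pumps and mitochondrial calcium genes lay at 0.06 over 9 genes. Partners of Slc9 and Slc4 proteins lay at 0.09 over 5 genes, with Tesc at 0.63, and 0 genes of either list reached 2-fold.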

How the data were processed

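Total RNA of glomeruli was hybridised to 1 one-colour (Cy3) Agilent array per group, both on slide 1, after labelling 0.25 µg of RNA. The deposited scanner files hold intensity per spot, which the authors extracted with Agilent Feature Extraction 11.0.1.1, per the file headers, while the submitters' processing notes name version 9.1. Quality flags and other values of 0 or 1 stand as deposited, per the file headers. The authors' deposited table of log2 values (its processing steps not stated) matched the array of its own label best (r = 0.994 for both) and served as an alternative.

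Processed intensity was put on a log2 scale, each probe became the mean of its unmarked spots, and each array was centred on its 75th percentile. A probe counted as measured if the scanner software put over 50% of its spots well above background on each array. Of the spots 0 were saturated. RefSeq accessions named 27234 of 39429 probes through a GRCm38.p6 gene table, and 12195 stayed unnamed. The brightest measured probe stood for a gene. A gene above background on 1 array has a nominal bound. It is set against its dim signal or, if higher, the detection limit of the dim array. This limit is the lowest signal called well above background (6.34 on the array labelled Sirpa-/-, 6.58 on the WT array). Calls are differences of at least 2-fold. The procedure was tested on simulated arrays with the same noise at all signals and changes only in the brighter probes. That test does not cover dim genes such as Slc12a3 and Slc9a3, nor the spread between mice. Depth does not apply to arrays, and 1 array per group limits the precision.

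Alternatives were quantile normalization, median centring, normexp (offset 50, on median spot signals, since mean signals are not used here), the authors' table, no filter and a stricter filter (signal of 100) on dim probes, the mean of probes and a 1.5-fold threshold. Named were members, and of each list up to 4 genes with the largest differences, beside a few genes named for contrast after their values were seen (Wnk1, Wnk4 and Trpm6). Some genes, among them 3 members, are counted but not reported here by name. Members, lists, motifs and segment groups were chosen with earlier results of these data known. Python 3.11.15, pandas 2.3.3, R 4.3.3 and limma 3.58.1 were used.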

Additional observations from a re-analysis of the deposited data

How the results depend on the processing

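Quantile normalization, median centring and the authors' table left all counts and family medians close to the values above. Members at least 2-fold higher numbered 2 with no filter on dim probes, 0 with the stricter filter and 5 at a 1.5-fold threshold. Members at least 2-fold lower numbered 1 with normexp, 5 with no filter and 5 at 1.5-fold. The genes added with no filter were not well above background on both arrays. Among all genes, where 285 were higher and 304 lower by 2-fold, the counts were 113 and 79 with normexp, 670 and 613 with no filter, 82 and 104 with the stricter filter, and 791 and 962 at 1.5-fold. The normexp offset of 50 pulls the ratios of dim probes together by construction. With normexp the median of the members was 0.082, beside 0.07 for all genes, and the family medians were 0.12 for Slc4, 0.12 for Slc9, 0.036 for Slc26 and 0.017 for Slc12, which lay at -0.04 without it. The mean of probes gave 0.068 for Slc4, -0.072 for Slc20 and Slc34 together and 0.016 for Slc26. With no filter Slc20 and Slc34 lay at -0.26 and Slc26 at -0.013, and with the stricter filter at -0.078 and 0.076. So the sign of the Slc4, Slc12, Slc26 and overall medians is not settled, and the cause was not tested. Among marker medians, loop moved to 1.07 and erythroid to 1.503 with the stricter filter. With normexp loop moved to 0.41, distal convoluted tubule to 0.52, principal cell to 0.15 and B cell to 0.64. The distal convoluted tubule median was 0.93 with no filter. The B cell median was 0.70 with the stricter filter and 0.61 with the mean of probes. Carbonic anhydrases lay at 0.076 with no filter, and partners of Slc9 and Slc4 proteins at 0.17 with normexp and 0.23 with the mean of probes. The loop and distal tubule transporters had a median of 0.35 with normexp. No paired analysis was possible because each group has 1 array. Low signal over background limits Slc9a3, Slc9a7, Slc8a1, Slc4a10 and Slc26a9, and on the WT array also Slc12a3.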

Other observations

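Sirpa lies on chromosome 2, as do 10 of the 54 ion transporter genes by the annotated order. The share of all genes on that chromosome was not counted. Of the 10 members 9 were measured, 0 were 1.5-fold apart, and the differences ran from -0.46 to 0.41. Of all genes 4.34% were at least 1.5-fold higher and 5.27% lower, and for 9 genes 0 is near these shares. Nearest to Sirpa were Slc20a1, with 4 protein-coding genes between it and Sirpa (difference -0.08), and Slc4a11, with 24 between (0.12).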
